A study of Mus musculus with 4 samples.

Results

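The 10 genes described here encode the enzymes that carry out the repeated steps of fatty acid beta-oxidation in the mitochondrial matrix and on the inner membrane, namely Acadvl, Acadl, Acadm, Acads, Hadha, Hadhb, Hadh, Acaa2, Echs1 and Eci1. They were chosen by gene symbol, and each was found on 1 row of the 55387 gene rows in every library. RNA sequencing was performed on whole brown adipose tissue (BAT) of 15-week-old male mice, with 1 library from each of 4 mice. The control mice were 2 Sox4f/f animals, which carry floxed Sox4 alleles and are named WT in the sample labels. The other 2 mice were Sox4-MKO littermates on the same C57BL/6 background, in which Sox4f/f is combined with a Cre recombinase expressed from the Myf5 gene. Myf5-Cre is active in precursors of brown adipocytes and of skeletal muscle, so the deletion is not limited to fat. The labels name brown adipocytes as the cell type, although the tissue was not sorted.

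Mitochondrial beta-oxidation shortens a fatty acyl-CoA in a 4-step cycle of dehydrogenation, hydration, a further dehydrogenation and thiolysis, which releases acetyl-CoA. The acyl-CoA dehydrogenases differ in the chain length they prefer, and the mitochondrial trifunctional protein carries out the later steps on long chains. In brown adipocytes the pathway supplies electrons to the respiratory chain, whose gradient is turned into heat by UCP1, and many of its genes are known targets of PPARα, ERRα and PGC1α.

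Sox4 itself was checked first. It lies at chr13:28948919-28953713 on the minus strand of GRCm38 and had 1.98 and 1.06 FPKM (sequenced fragments divided by transcript length and by library depth) in Sox4f/f mice 1 and 2, against 0.981 and 3.06 FPKM in the mice labelled Sox4-MKO. The genotypes overlapped, with a log2 fold change of 0.20, a 95% interval from -0.95 to 1.34 and an adjusted p of 0.843 in limma, so a lower Sox4 level was not detected under the knockout label. The values rest on an estimated 12 to 50 fragments per kilobase, an exon of Gm26735 overlaps Sox4 on the opposite strand, and whether they cover the deleted part is not given in the sources used here, so they are a weak check of the label. Every direction below is therefore that of the Sox4-MKO-labelled libraries against Sox4f/f. Depth, estimated from the smallest values in each library, was 12200000 to 16200000 fragments, which puts about 1790 (Acads) to 19640 (Hadhb) fragments per kilobase behind each value of the 10 enzymes. Marker genes showed more skeletal muscle RNA in the Sox4-MKO-labelled libraries, where 9 of 10 muscle markers were above both Sox4f/f libraries and none was listed at 0, whereas 21.7% of all genes tested had that ordering. Their summed level was 210.3 and 795 FPKM in Sox4f/f and 15161 and 2713 FPKM in the Sox4-MKO-labelled libraries. Brown adipocyte markers moved the other way, with 5 of 6 lower without overlap, whereas 29.6% of all genes tested were lower in this way. For these markers the control libraries summed to 8097 and 7891 FPKM, and the Sox4-MKO-labelled ones to 4143 and 4766 FPKM. In bulk tissue, fewer cells of a type and less RNA per cell cannot be told apart.

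The promoters of 3 of the enzymes are shown because they bear on how the genes are arranged and on the nuclear receptors that act on this pathway. Hadha and Hadhb, which encode the 2 kinds of subunit of the trifunctional protein, lie head to head on chromosome 5, and 85 bases separate their annotated starts. The stretch between them has a GC content of 69.4% and is given on the Hadhb strand, at chr5:30155163-30155247 (GRCm38, plus strand). The bases before the starts of Acadm (chr3:153944644-153944893, minus strand) and Acadvl (chr11:70015429-70015678, minus strand) follow, with the nuclear receptor half-site AGGTCA, or its reverse complement TGACCT, in capitals. All 3 sequences are from RefSeq promoter windows.
Hadhb: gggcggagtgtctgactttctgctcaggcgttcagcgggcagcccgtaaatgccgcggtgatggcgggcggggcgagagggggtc
Acadm: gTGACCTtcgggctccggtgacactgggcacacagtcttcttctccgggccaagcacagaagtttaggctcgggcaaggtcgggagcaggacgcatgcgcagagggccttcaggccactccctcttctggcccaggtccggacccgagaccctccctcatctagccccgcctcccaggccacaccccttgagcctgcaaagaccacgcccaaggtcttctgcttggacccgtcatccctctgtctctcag
Acadvl: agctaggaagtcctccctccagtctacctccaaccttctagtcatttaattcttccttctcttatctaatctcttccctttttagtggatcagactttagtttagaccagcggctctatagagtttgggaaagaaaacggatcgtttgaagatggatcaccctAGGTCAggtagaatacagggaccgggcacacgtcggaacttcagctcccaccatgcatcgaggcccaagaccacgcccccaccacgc

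Such a half-site is short and common, and AGGTCA stood on either strand in 16.255% of 32851 promoter windows of 300 bases (250 before to 50 after each start). It was found in 3 of the 9 enzyme windows searched, those of Acadm, Acadvl and Echs1. The longer form AAGGTCA, which contains AGGTCA and is the type bound by ERR receptors, was in 4.718% of all windows and in that of Acadm alone among the 9. The direct repeat of this half-site that PPAR receptors bind (DR1) was in 0.04% of all windows and in 0 of 9. For the Sox family, AACAAAG was in 5.851% of all windows and in 0 of 9, and ACAAT was in 31.025% of all windows and in those of Acadvl and Hadh. The palindrome bound by Ebf factors was in 0.904% of all windows and in 0 of 9. A match describes these letters only, and the window of Acaa2 was not searched.

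All 10 enzyme genes were lower in both Sox4-MKO-labelled libraries than in both Sox4f/f libraries, an ordering found for 29.6% of the 12877 genes tested, and 56.0% of all genes had a log2 fold change below 0. Of the 10, 9 were called lower at an unadjusted p under 0.05 in limma, the threshold the study used, and the background rate of such lower calls was 8.28% (7.95% for higher calls and 16.2% in either direction). The exception was Hadha. Levels in the Sox4-MKO-labelled libraries were between 60.0% (Acaa2) and 82.2% (Hadha) of the Sox4f/f mean. The median log2 fold change of the 10 was -0.60, against -0.05 over all genes tested, and 4.42% of the genes tested were at or below that member median. After Benjamini-Hochberg adjustment over all genes, 0 of 12877 genes passed 0.05 in limma, and the adjusted p of the members was 0.196 to 0.320. With 2 mice in each group, an exact permutation test of a single gene cannot go below 0.333.

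**Figure D1:**
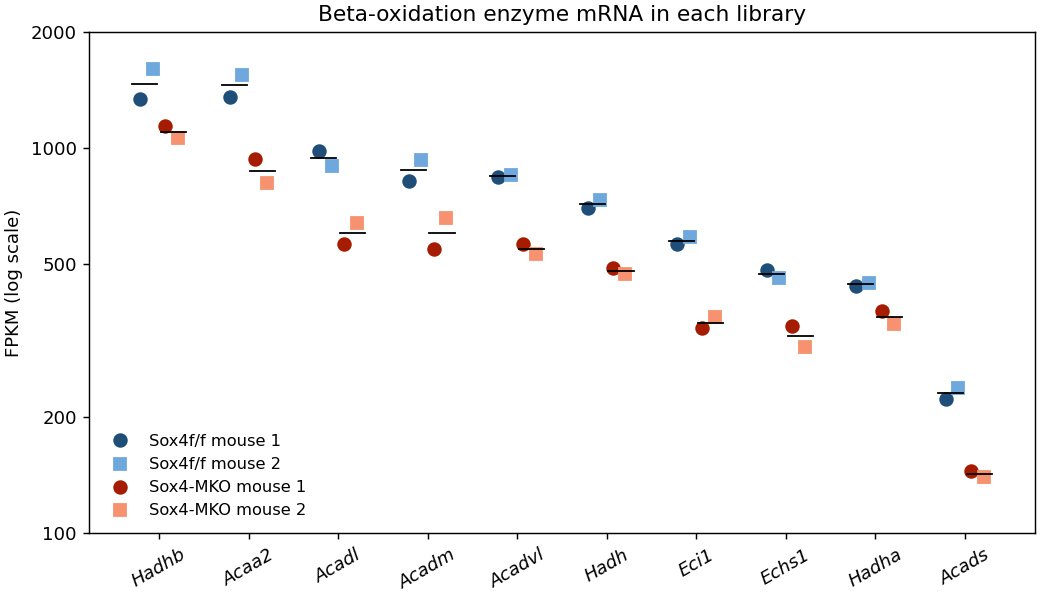
Level of each of the 10 beta-oxidation enzyme genes in FPKM (y axis, log scale) in each of the 4 libraries, with points for mice and short lines for the mean of the 2 mice in Sox4f/f and in the Sox4-MKO-labelled libraries. For every gene both Sox4-MKO points lie below both Sox4f/f points, with the smallest separation at Hadha and Hadhb.

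The acyl-CoA dehydrogenases, which start each cycle, are described from the longest chains to the shortest. Acadvl, the very long-chain enzyme (chr11:70010183-70015411, minus strand), had 842 and 852 FPKM in Sox4f/f and 565 and 531 FPKM in the Sox4-MKO-labelled libraries. The mice of a genotype lay close together and the genotypes were far apart, with means of 847 ± 7.61 and 548 ± 23.7 FPKM (SD, n = 2 mice each). Acadvl had a log2 fold change of -0.63 (SE 0.11), with an adjusted p of 0.196 in limma.

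Acadl, the long-chain enzyme (chr1:66830839-66863277, minus strand), had 984 and 899.8 FPKM in Sox4f/f and 564 and 641 FPKM in the Sox4-MKO-labelled libraries. It had the highest mean of the 4 dehydrogenases in Sox4f/f and did not overlap between genotypes. Its log2 fold change was -0.65 (SE 0.13), with an adjusted p of 0.208 in limma. Acadm, the medium-chain enzyme (chr3:153922357-153944632, minus strand), had 822 and 931 FPKM against 546 and 660.3 FPKM. It varied more between mice of a genotype than the other dehydrogenases, with SDs of 77.5 and 80.5 FPKM. Its log2 fold change was -0.54 (SE 0.15), with an adjusted p of 0.240 in limma, and its call was lost under 7 of 14 alternatives. These include the fits without Sox4f/f mouse 1 (-0.63), without Sox4f/f mouse 2 (-0.45) and without Sox4-MKO mouse 1 (-0.41).

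Acads, the short-chain enzyme (chr5:115110299-115119346, minus strand), was the least abundant of the 10 genes in each genotype. It had 223 and 239 FPKM in Sox4f/f and 145 and 139.9 FPKM in the Sox4-MKO-labelled libraries, with no overlap. Its log2 fold change of -0.69 (SE 0.11) had an adjusted p of 0.196 in limma, and the gene was called under all 14 alternative settings.

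Hadha and Hadhb encode the alpha and beta subunits of the trifunctional protein, and their log2 fold changes were the closest to 0 of the 10, a difference from the other genes that was not tested. Hadha (chr5:30118304-30155162, minus strand), whose subunit carries the hydratase and hydroxyacyl-CoA dehydrogenase activities, had 439 and 446 FPKM in Sox4f/f and 378 and 350.2 FPKM in the Sox4-MKO-labelled libraries. The groups did not overlap, but the log2 fold change was -0.28 (SE 0.11), with a 95% interval from -0.58 to 0.01 and an adjusted p of 0.320 in limma. Hadhb (chr5:30155248-30184593, plus strand), which encodes the thiolase subunit, had 1339 and 1604 FPKM in the control mice against 1144 and 1060.4 FPKM. The 2 control mice differed from each other more than Sox4f/f mouse 1 differed from Sox4-MKO mouse 1. The log2 fold change of Hadhb was -0.41 (SE 0.15), with an adjusted p of 0.290 in limma. Its call was the least stable, lost under 10 of 14 alternatives, and the log2 fold change was -0.15 under quantile normalization and -0.28 without Sox4f/f mouse 2.

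The 2 genes on either side of this short stretch had unequal levels in FPKM, which is per length. The ratio of Hadhb to Hadha was 3.05 and 3.59 in Sox4f/f mice 1 and 2. It was 3.03 in each of the Sox4-MKO-labelled libraries. The ratio therefore lay close to that of Sox4f/f mouse 1, with Sox4f/f mouse 2 the highest of the 4 libraries.

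The later steps on shorter chains are carried out by Echs1, Hadh and Acaa2. Echs1, the short-chain enoyl-CoA hydratase (chr7:140105710-140116476, minus strand), had 481 and 459 FPKM in Sox4f/f and 345 and 305 FPKM in the Sox4-MKO-labelled libraries. No library of one genotype reached the other, and the log2 fold change was -0.53 (SE 0.12), with an adjusted p of 0.214 in limma. Hadh, the hydroxyacyl-CoA dehydrogenase for medium and short chains (chr3:131233419-131272101, minus strand), had 701 and 734 FPKM against 489.6 and 470.2 FPKM. Mice of a genotype differed little here, with SDs of 23.1 and 13.7 FPKM, and the log2 fold change was -0.58 (SE 0.11) with an adjusted p of 0.199 in limma.

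Acaa2, the 3-ketoacyl-CoA thiolase that closes the cycle (chr18:74779197-74806208, plus strand), had 1361 and 1552 FPKM in Sox4f/f and 937 and 811 FPKM in the Sox4-MKO-labelled libraries. It fell to 60.0% of the control mean, the lowest share of the 10 genes. The log2 fold change was -0.74 (SE 0.15), with a 95% interval from -1.12 to -0.35 and an adjusted p of 0.207 in limma. Eci1, an auxiliary isomerase that moves the double bond of unsaturated chains so that they can enter the cycle (chr17:24426641-24439348, plus strand), had 562 and 586 FPKM against 341 and 364 FPKM. The gap between the genotypes was several times the difference between mice of one genotype. The log2 fold change of Eci1 was -0.70 (SE 0.11), with an adjusted p of 0.196 in limma, and it was called under all 14 alternatives.

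Exons of Acadvl, Hadha and Echs1 overlap those of Dvl2, Garem2 and Paox on the opposite strand. The library kit in the labels keeps the strand, but the strand setting of the counting is not given in the sources used here, so a share of these reads may belong to the partner.

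**Figure D2:**
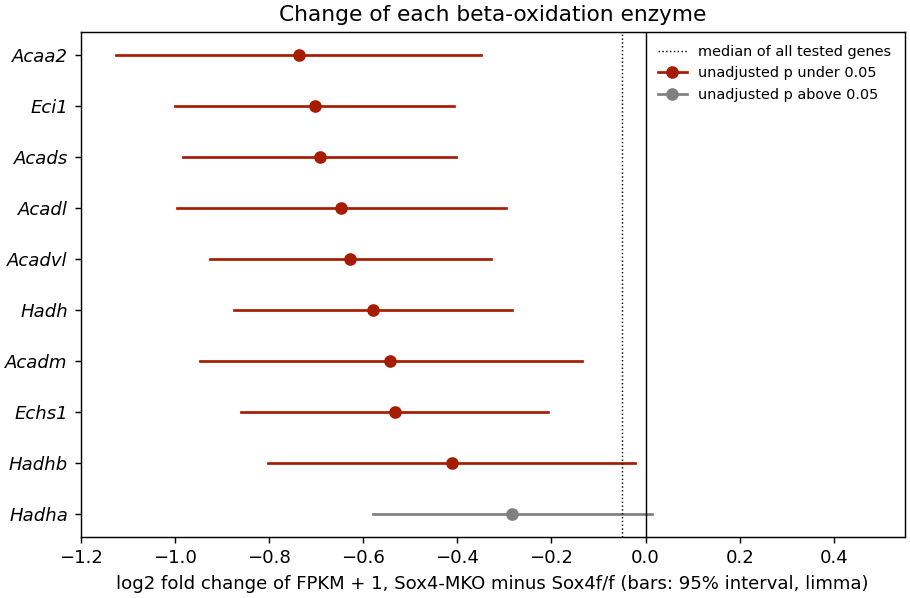
Log2 fold change (x axis, Sox4-MKO-labelled libraries minus Sox4f/f) of each enzyme gene with its 95% interval from limma, one gene per line. All 10 lie below 0, and the interval of Hadha reaches 0.01.

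In Sox4f/f, Hadhb (1471 FPKM) and Acaa2 (1457 FPKM) had the highest mean levels and overlapped between mice. Acadl (942 FPKM), Acadm (876 FPKM) and Acadvl (847 FPKM) came next, with neighbours overlapping. They were followed without overlap between neighbours by Hadh, Eci1, Echs1, Hadha and Acads. In the Sox4-MKO-labelled libraries, Hadhb (1102 FPKM) stood apart from Acaa2 (874 FPKM), and Eci1 overlapped each of its neighbours Hadha and Echs1. The 10 genes ranked between 34 (Hadhb) and 331 (Acads) by level among the tested genes in Sox4f/f.

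The summed level of the 10 genes was 7755 and 8303 FPKM in Sox4f/f, and 5455 and 5332 FPKM in the Sox4-MKO-labelled libraries. Hadha made up a larger share of this sum in the Sox4-MKO-labelled libraries. It took 5.66% and 5.38% of it in Sox4f/f and 6.92% and 6.57% in the Sox4-MKO-labelled libraries. Hadh, in contrast, stayed between 8.82% and 9.04% in all 4 libraries. The ratio of Acaa2 to Hadhb, the thiolases for shorter and longer chains, was 1.02 and 0.968 in Sox4f/f and 0.819 and 0.764 in the Sox4-MKO-labelled libraries.

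The 2 Sox4-MKO-labelled libraries were alike in these genes. Of the 10, 3 genes were lower in mouse 1 and 7 were lower in mouse 2. Skeletal muscle markers differed between the same libraries, with a summed level 5.59 times as high in mouse 1. The median log2 fold change of the 10 genes came to -0.62 when Sox4-MKO mouse 1 was left out, and to -0.61 when mouse 2 was. Muscle fibres express these enzymes as well, and the part of muscle RNA in their levels was not tested.

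**Figure D3:**
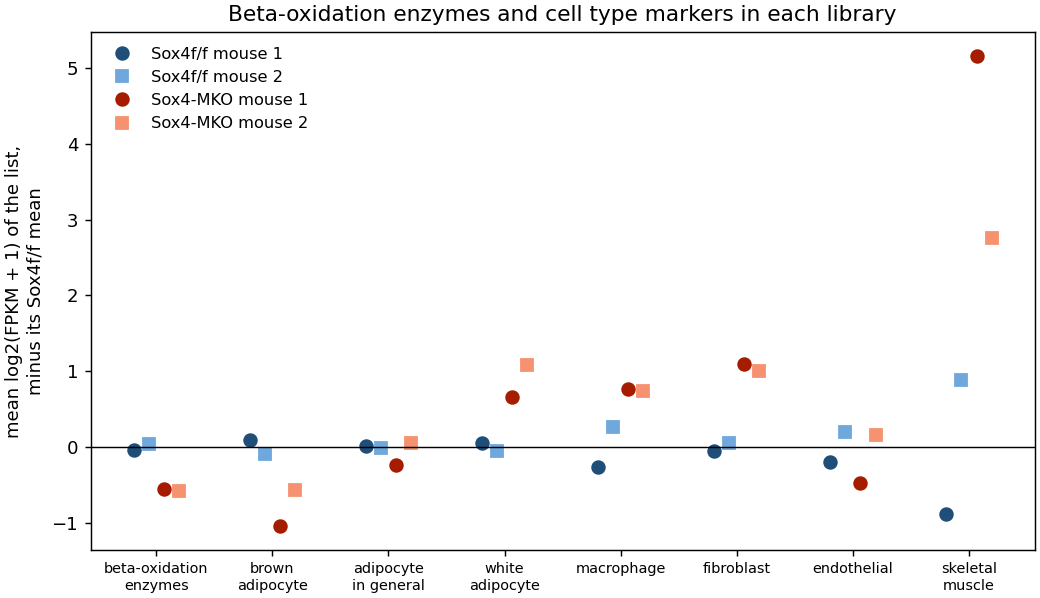
Mean log2(FPKM + 1) of the 10 enzymes and of each cell type marker list in each of the 4 libraries (y axis), relative to the mean of the list in Sox4f/f, with 1 point per mouse. Skeletal muscle markers are far higher and differ most between the Sox4-MKO-labelled libraries, while brown adipocyte markers are lower there than in Sox4f/f.

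Markers of adipocytes in general had summed levels of 9145 and 9618 FPKM in Sox4f/f and 8284 and 11094 FPKM in the Sox4-MKO-labelled libraries, overlapping between genotypes. Most of this sum was Fabp4, with 5801 and 6334 FPKM against 5416 and 7518 FPKM. Of the 6 markers, 3 (Plin1, Lipe and Pparg) were lower without overlap, an ordering found for 29.6% of all genes tested. Lipe was also called lower in limma. Relative to the geometric mean of all 6 markers, the geometric mean of the 10 enzymes was 0.797 and 0.857 in Sox4f/f and 0.659 and 0.528 in the Sox4-MKO-labelled libraries. When all libraries were scaled to these markers, a choice made after seeing the data, the median log2 fold change was -0.51 and 4 of the 10 genes were called lower, while lower calls over all genes went from 8.28% to 1.95%. Of all genes tested, 21.7% were higher without overlap in the Sox4-MKO-labelled libraries, as were all 6 macrophage markers and all 5 fibroblast markers. Their summed levels were 1.62 and 2.18 times those of Sox4f/f, and their part in the result was not tested. Of 6 white adipocyte markers 3 were higher without overlap, and Hoxc9 was listed at 0 in some libraries.

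The other genes of mitochondrial fatty acid oxidation, 22 of which were tested, include those that bring acyl groups into the matrix and pass on their electrons. The list also holds Acadsb, Hibch, Pcca, Pccb and Mcee, which act in the breakdown of branched-chain amino acids or propionate. Their log2 fold changes were -0.06, -0.17, -0.05, -0.57 and -0.22. Of the 22, 9 were called lower and 0 higher in limma, where 8.28% and 7.95% of all genes tested were called. The median log2 fold change of the 22 was -0.33. Cpt1b, the muscle-type carnitine palmitoyltransferase at the outer membrane, had 321 and 347 FPKM in Sox4f/f and 187 and 181 FPKM in the Sox4-MKO-labelled libraries, a log2 fold change of -0.86. This was the lowest value of the 22. Slc25a20, the carnitine carrier of the inner membrane, had 253 and 245 FPKM against 153 and 171 FPKM, with a log2 fold change of -0.62. Cpt2, which re-forms acyl-CoA in the matrix, was not called, at 141 and 147 FPKM against 122 and 127 FPKM. Cpt1a, the liver-type form of the outer membrane enzyme, overlapped between genotypes at 4.61 and 4.33 FPKM against 7.21 and 4.42 FPKM.

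The electron-transfer flavoprotein takes up electrons from the acyl-CoA dehydrogenases. Its beta subunit gene Etfb had 1509 and 1451 FPKM in Sox4f/f and 848 and 868 FPKM in the Sox4-MKO-labelled libraries. Etfa, the alpha subunit gene, had 883 and 865 FPKM against 583 and 573 FPKM. Etfdh, whose product hands the electrons to ubiquinone, had 228 and 227 FPKM against 139 and 183 FPKM, and all 3 were called lower in limma. Of the auxiliary enzymes, Decr1 and Eci2 were not called, with log2 fold changes of -0.18 and -0.21, whereas that of Eci1 was -0.70. Ech1, a further auxiliary enzyme, was called lower, with a log2 fold change of -0.55. It had 937 and 1105 FPKM in Sox4f/f and 661 and 733 FPKM in the Sox4-MKO-labelled libraries.

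Peroxisomes carry out a separate beta-oxidation on very long and branched chains. Of its 14 tested genes, Abcd3 and Pecr were called lower and Abcd2 and Acaa1b higher in limma. Over all genes tested, 8.28% were called lower and 7.95% higher, so these counts are not far from the background. Abcd2, a transporter of very long-chain acyl-CoA, had 30.7 and 26.2 FPKM in Sox4f/f and 64.3 and 59.7 FPKM in the Sox4-MKO-labelled libraries, a log2 fold change of 1.10. Acaa1b, a peroxisomal thiolase, had 13.3 and 12.9 FPKM against 20.7 and 22.7 FPKM, whereas the mitochondrial thiolase gene Acaa2 was lower. Acaa1b has a close copy, Acaa1a, which was more abundant and was lower without overlap. Acaa1a had 125 and 105 FPKM in Sox4f/f and 97.2 and 86.0 FPKM in the Sox4-MKO-labelled libraries. Its log2 fold change was -0.32, and it was not called. How reads were split between Acaa1a and Acaa1b is not given in the sources used here.

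**Figure D4:**
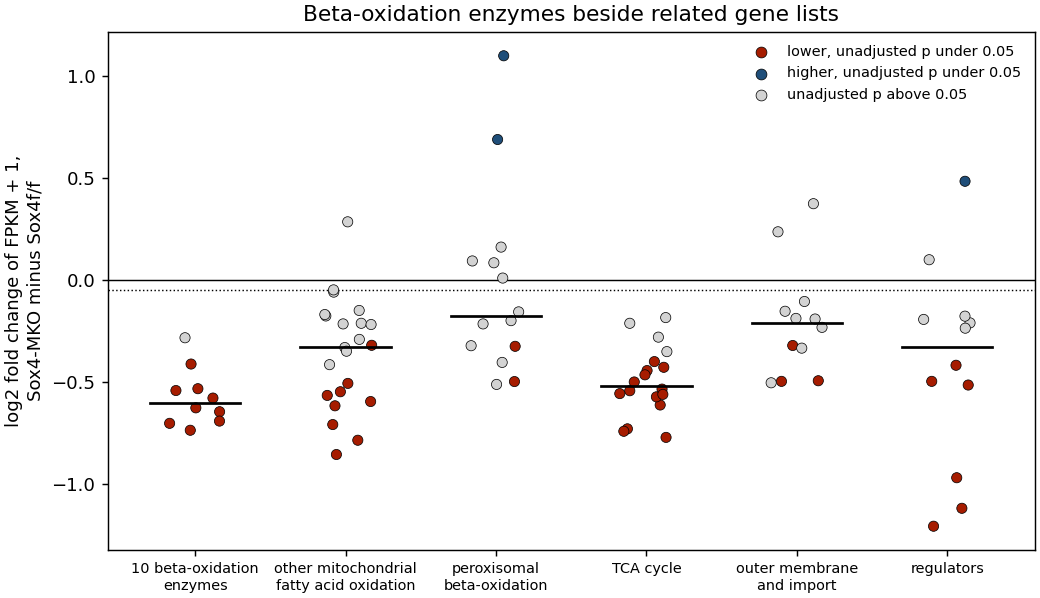
Log2 fold changes (Sox4-MKO-labelled libraries minus Sox4f/f) of the 10 enzyme genes beside the other lists (y axis), one point per gene, coloured by its call at an unadjusted p under 0.05, with lines for list medians. The 10 beta-oxidation and the TCA cycle enzymes lie wholly below 0, while peroxisomal genes lie on both sides.

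Acetyl-CoA from beta-oxidation enters the TCA cycle, and 14 of its 18 tested genes were called lower and 0 higher in limma, with a median log2 fold change of -0.52. The shares over all genes tested were 8.28% lower and 7.95% higher. The lowest value was that of Sucla2, a subunit of succinyl-CoA synthetase, which had 874 and 812 FPKM in Sox4f/f and 475 and 512 FPKM in the Sox4-MKO-labelled libraries. The geometric mean of the 10 beta-oxidation enzymes over that of the TCA cycle enzymes was 1.39 and 1.42 in Sox4f/f and 1.27 and 1.40 in the Sox4-MKO-labelled libraries, so the ratio overlapped between genotypes. Genes of the outer membrane and of protein import, chosen as a gauge of mitochondria apart from oxidation, were called lower in 3 of 12 cases (Tomm40, Timm44 and Hspa9), with a median log2 fold change of -0.21. The geometric mean of the 10 enzymes over theirs was 6.48 and 6.82 in Sox4f/f and 5.12 and 5.14 in the Sox4-MKO-labelled libraries, without overlap.

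Among 12 transcription factors and coactivators listed as regulators, 6 were called lower and 1 higher in limma, beside 8.28% and 7.95% of all genes tested. Ppard, Prdm16, Nrf1, Gabpa and Tfam were not called and overlapped between genotypes. Whether each of the 12 acts on the beta-oxidation enzyme genes was not tested. Ppara, the nuclear receptor activated by fatty acids, had 115 and 130.2 FPKM in Sox4f/f and 57.7 and 66.4 FPKM in the Sox4-MKO-labelled libraries, a log2 fold change of -0.97. Its partner Rxra was higher, at 18.9 and 20.4 FPKM against 28.3 and 27.5 FPKM. The coactivator gene Ppargc1a had 48.2 and 22.4 FPKM against 13.2 and 14.2 FPKM, and Sox4f/f mouse 1 was the highest of the 4 libraries. Ppargc1b had 36.0 and 36.3 FPKM against 14.7 and 17.6 FPKM. Esrra, which encodes ERRα, had 88.7 and 80.4 FPKM against 63.8 and 54.2 FPKM, and Esrrg and Ebf2 were also called lower, with log2 fold changes of -0.42 and -0.50.

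When a mouse is left out, its genotype has 1 library, which is then assumed to vary like those of the other genotype. Without Sox4f/f mouse 1, 5 of the 10 enzymes were called lower, beside 2.95% of all genes. Without Sox4f/f mouse 2, 4 were called, beside 3.8% of all genes. Leaving out Sox4-MKO mouse 1, or mouse 2 in its place, 8 were called, beside 7.88% and 6.33% of all genes. Lower calls thus became fewer over all genes as well, which does not hold for higher calls in every fit. The median log2 fold change of the 10 was -0.62 without Sox4f/f mouse 1 and -0.59 without Sox4f/f mouse 2, against -0.60 with all mice. All 10 log2 fold changes were negative in each of these fits.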

How the data were processed

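RNA sequencing was performed on BAT of 4 mice, and genotypes follow the sample labels, with details from the methods. The authors deposited FPKM values, 1 per gene row and library, for which the submitters' processing notes name Cufflinks 2.1.1 and Cuffdiff and the build mm10. The aligner and the annotation are not given in the sources used here. Loci were looked up by symbol in GENCODE M21 (GRCm38). The labels name a column kit and a stranded library, the methods TRIzol and TruSeq.

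The values are not counts, so limma 3.58.1 in R 4.3.3 was run on log2(FPKM + 1) with only genotype in the model, eBayes with a trend and two-sided tests. A gene was tested if its averaged FPKM exceeded 1 in either genotype. A call is an unadjusted p under 0.05, as in the study, and adjusted p values are Benjamini-Hochberg over all 12877 tested genes. Log2 fold changes on this scale understate those of low genes. In simulated data for these genes, with 200 changed by 1 on the log2 scale, 92.0% were recovered unadjusted, 63.5% adjusted, and 4.39% of the unchanged genes were called. The simulated noise was normal and independent, with the same smoothed SD for genes of the same level. Real genes of a level differ in their spread, so these shares may not hold for the real data. The 10 enzymes had smaller log2 fold changes, from -0.74 to -0.28, and recovery at these sizes was not tested. p-values measure the spread between mice. Named genes are the members, Sox4, and genes of the pathway lists, plus the 5 genes whose profile over 4 libraries is nearest to that of the members. Genes of the pathway lists were chosen after their values were seen, and their order does not strictly follow the size of the change. The members and lists were chosen with earlier results of these data known. Depth was estimated from the lowest FPKM of genes with 1 transcript of at least 1500 nt and is approximate.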

Additional observations from a re-analysis of the deposited data

How the results depend on the processing

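The 10 genes gave 140 values under 14 alternative settings, and all 140 were negative. The call was lost in 26 and gained in 3, the latter all for Hadha. When each library was left out in turn, the lone library of that genotype was assumed to vary like the other genotype. In these fits 4 to 8 of the 10 were called lower, the median log2 fold change was -0.62 to -0.59, the calls over all tested genes were 380 to 1015 lower and 433 to 1443 higher, and the pathway list calls were 13 to 32 lower and 2 to 5 higher. The reference values were 1066 lower and 1024 higher over all genes, and 34 lower and 3 higher in the pathway lists. The replicate numbers were not used as pairs in the main model. The mouse 1 minus mouse 2 differences of the genotypes correlated with r = -0.012 over 12877 genes. With so few mice, this correlation cannot exclude that mice of the same number were paired. With a replicate block, 8 of the 10 were called lower, beside 7.28% of all genes, and Hadhb was not called. The median log2 fold change was -0.42 under quantile normalization, -0.53 with a common sum without mitochondrially encoded genes and Ucp1, and -0.65 after a GC content and length correction. Without moderation, 553 genes were called higher. Scaled to adipocyte markers, added after seeing the data, 251 genes were called lower, 4 of the 10 enzymes and 10 pathway list genes among them, and the median was -0.51. The share of calls that were lower was 51.0%, but 36.1% with the common sum and 20.7% scaled to adipocyte markers. The cause of these shifts was not tested. Adjusted calls numbered 0 except 1 without Sox4f/f mouse 1 and 4 without Sox4f/f mouse 2. With 2 mice per genotype, the number of mice limits the precision.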

Other observations

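Among 6001 genes with an averaged FPKM of at least 10, the gene whose centred log2 profile over the 4 libraries was nearest to the median profile of the 10 enzymes was Ulk1, which encodes a kinase that starts autophagy. It had 21.7 and 22.7 FPKM in Sox4f/f and 14.8 and 14.3 FPKM in the Sox4-MKO-labelled libraries, with a root mean square distance of 0.0148 on the log2 scale. Phyh, which encodes the peroxisomal enzyme that starts the alpha-oxidation of branched chains, was next at a distance of 0.0214, with 417 and 443 FPKM against 289 and 275 FPKM. Slc25a39, Rela and Etfa followed at 0.0225, 0.0262 and 0.0282. With 4 libraries, many genes can lie this close, and the likeness is a description.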
